A study of Homo sapiens with 14 samples.

Results

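The comparison described here set U2OS cells treated with valproic acid (VPA) against U2OS cells given the solvent dimethyl sulfoxide (DMSO), with 1 library on each side. U2OS is an established human osteosarcoma cell line, grown here in a serum-supplemented medium. VPA was used at 20 μM for 24 h, and DMSO at 0.5% by volume, with no time given in the labels for DMSO. The members were these 2 of the 14 libraries of the series, and they were compared over 12804 of the 28501 rows of their expression table, namely the genes averaging 1 FPKM or more across its 10 libraries. FPKM is a read count scaled by transcript length and by library size, so levels can be compared between genes. The same table holds 1 library each of SAHA (1 μM, 24 h), rapamycin (5 μM, 24 h), GSK343 (10 μM, 24 h), BRD4770 (20 μM, 24 h), GSK-J4 (20 μM, 12 h), BIX-01294 (5 μM, 12 h), UNC1215 (50 μM, 24 h) and 2-PCPA (1 mM, 12 h), which served as context. BRD4770 was used at the dose and time of VPA, the others at another dose, time or both, and several of the compounds act on chromatin enzymes. All groups were the same cell line with no genetic change named in the labels, and nothing in the labels says which libraries came from separate cultures.

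VPA is a branched short-chain fatty acid used against seizures and as a mood stabiliser. It inhibits class I histone deacetylases, enzymes that take acetyl groups off histone tails, and it is also known to lower cellular inositol and to enter fatty acid metabolism. SAHA (vorinostat) is a hydroxamic acid that inhibits the same family of enzymes. Autophagy, in which a cell encloses part of its cytoplasm and digests it in lysosomes, is raised by rapamycin through inhibition of the kinase mTOR complex 1, which otherwise favours protein, lipid and ribosome synthesis.

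With 1 library on each side there was no estimate of the spread between replicates, so no test was made, and every difference below compares these libraries and not the conditions. Differences are log2(FPKM + 1) in VPA minus log2(FPKM + 1) in DMSO, which understates the change of genes with low values. A gene was counted as at least 2-fold different where this reached 1 in either direction. Other compounds with a second library give a scale for such counts. Rapamycin, GSK343 and 2-PCPA had one, with its own DMSO library in a second table that shared 12058 of the genes. Of 804 genes at least 2-fold higher than DMSO in the first library of rapamycin or GSK343, counted per compound, 77 were also at least 2-fold higher in the second, and of 404 at least 2-fold lower, 21 were. By compound (2-PCPA included) and direction the repeated share was 1.80% to 14.9%, against 0.323% to 1.16% of all shared genes, and 61.1% to 77.9% kept their direction, against 44.4% to 55.3% of all shared genes. VPA had no second library.

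In the VPA library 360 genes (2.81%) were at least 2-fold higher than in DMSO and 203 (1.59%) at least 2-fold lower, together 563 (4.4%). Over all genes kept the median difference was 0.01, and 6494 genes (50.7%) were higher by any amount against 6197 (48.4%) lower. These shares, with the 2.81% and 1.59% past 2-fold, are the scale for the counts of list members below. Fewer genes passed the 2-fold line against DMSO in UNC1215, at 391 (3.05%), and more did in each of the other compounds, with 676 (5.28%) in rapamycin, 1488 (11.6%) in SAHA and 2049 (16%) in BIX-01294. Of the 563 genes, 107 (19.0%) were listed at 0 in VPA or in DMSO, 143 (25.4%) were small RNA or clone rows, and 238 (42.3%) had a mean of at least 5 FPKM.

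The DMSO library was itself at the end of the range for many of these genes. It was the lowest of the 10 libraries in 84 of the 360 higher genes (23.3%), against 3.51% of all genes. It was the highest of the 10 in 61 of the 203 lower ones (30.05%), against 4.55% of all genes. VPA was the highest of the 10 in 102 of the 360 (28.3%), against 5.98% of all genes, and the lowest in 43 of the 203 (21.2%), against 3.19%. The genes were chosen by the difference between VPA and DMSO, which by itself raises these shares for both libraries. Set against the median of the other 8 compounds in place of DMSO, 96 of the 360 (26.7%) were still at least 2-fold higher in VPA and 55 of the 203 (27.1%) at least 2-fold lower. For this reason the values of other compounds stand beside those of VPA and DMSO for the genes described most fully below, and list medians are also given for VPA against the median of the 8 compounds, likewise relative to all genes. Of 18 lists whose median in VPA was at least 0.2 from that of all genes when set against DMSO, 16 kept their direction against that median and 7 stayed past 0.2. Lower among the 7 were ATF4 targets, cholesterol, fatty acid synthesis, ribosome biogenesis, and glycolysis and hypoxia. Higher were replacement histones and interferon response genes. The interferon genes, given only here, were 16 higher and 3 lower than in DMSO, none 2-fold. Their median was 0.26 against DMSO and 0.33 against the 8 compounds. The genes next to the 2-fold line were CLCN7 (21.1 FPKM in VPA and 10.1 FPKM in DMSO) just inside it and SAP25 (6.89 FPKM in VPA and 2.95 FPKM in DMSO) just outside it among higher genes. Among lower genes they were TEFM (7.61 FPKM in VPA and 16.4 FPKM in DMSO) just inside and ALPP (0.458 FPKM in VPA and 1.91 FPKM in DMSO) just outside.

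The library nearest to VPA was rapamycin, not DMSO and not SAHA. Between VPA and rapamycin 331 genes (2.59%) differed at least 2-fold, and 480 (3.75%) did between VPA and GSK343. The number was 563 (4.4%) for DMSO, 578 (4.51%) for UNC1215 and 1447 (11.3%) for SAHA. Across the 12804 genes, which are not independent replicates, Pearson's r of log2(FPKM + 1) levels was 0.962 between VPA and rapamycin, 0.921 between VPA and SAHA and 0.953 between VPA and DMSO. The median absolute log2 difference was 0.195 between VPA and rapamycin, 0.363 between VPA and SAHA and 0.265 between VPA and DMSO. VPA was the highest of the 10 libraries in 766 genes (5.98%) and the lowest in 409 (3.19%). The other 9 were highest in 0.773% to 26.5% of genes and lowest in 2.48% to 36.9%.

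**Figure D1:**
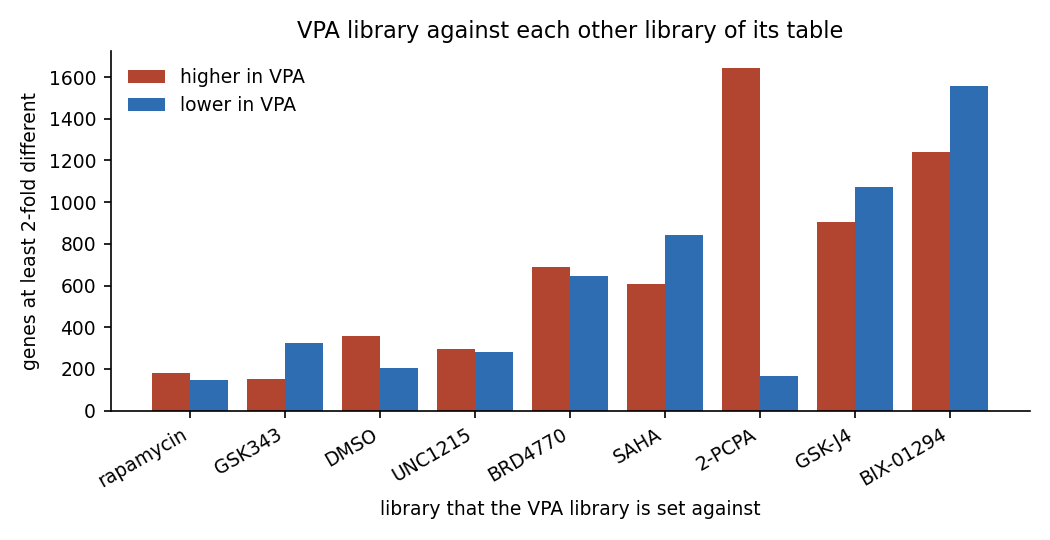
Number of genes (vertical axis) at least 2-fold higher (red) or lower (blue) in the VPA library than in each of the 9 other libraries of its table, over 12804 genes, in order of the total. Rapamycin stands first with 331 genes in all and BIX-01294 last with 2797; DMSO comes after GSK343, with 563.

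The relative depth of VPA over DMSO, read from the step between low FPKM values, was 1.10, and 12583 genes reached 1 FPKM in VPA against 12361 in DMSO. Of 375 olfactory receptor genes, which these cells should lack, 2.67% were above 0 in VPA and 4.27% in DMSO, against 28% in 2-PCPA, which stood apart from the rest. Among 7 osteoblast and osteosarcoma markers, 4 reached 1 FPKM in VPA and 3 in DMSO, with summed levels of 471 FPKM in VPA and 448 FPKM in DMSO. COL1A1 and SPARC carried nearly all of that sum, TWIST1 was listed at 0 in all 10 libraries, COL1A2 was at 0 in VPA and 0.0515 FPKM in DMSO, and RUNX2, the osteoblast transcription factor, was at 2.41 FPKM in VPA and 5.27 FPKM in DMSO. Of 17 markers of other cell types, 13 were at 0 in VPA and 10 in DMSO, and the highest was 1.37 FPKM in VPA and 1.62 FPKM in DMSO. These are bulk libraries, so a change in the share of cells that express a gene and a change in its level per cell cannot be told apart.

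**Figure D2:**
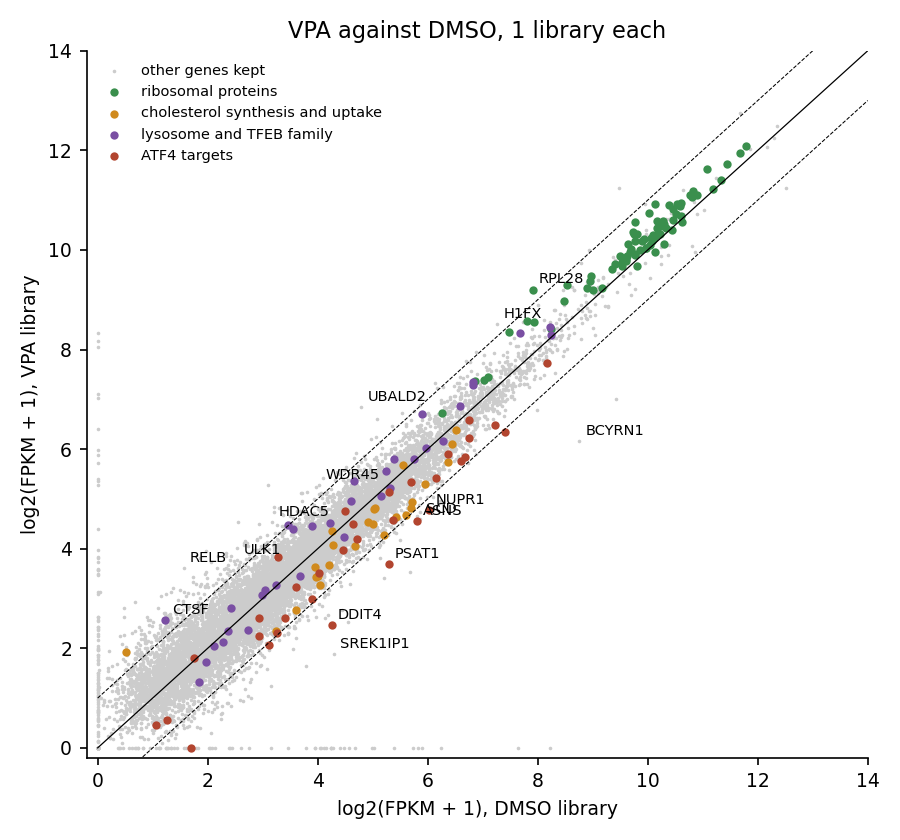
Each point is 1 of 12804 genes, with log2(FPKM + 1) in the VPA library on the vertical axis and in the DMSO library on the horizontal axis; the solid line marks equal values and the dashed lines a difference of 1. ATF4 targets (red) and cholesterol genes (orange) lie mostly below the line of equal values, and ribosomal protein genes (green) mostly above it.

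The group that lay lowest in VPA was that of the ATF4 targets. ATF4 is the transcription factor of the integrated stress response, which raises genes of amino acid synthesis, amino acid transport and transfer RNA charging when amino acids run short or the endoplasmic reticulum is stressed, and mTOR complex 1 also raises its output. Of 33 members kept, 30 were lower in VPA than in DMSO and 3 higher, with 7 at least 2-fold lower and none 2-fold higher, against 1.59% of all genes 2-fold lower. The median difference relative to all genes was -0.69 in VPA, beside -0.65 in rapamycin, -0.43 in SAHA and 0.14 in UNC1215, each against the same DMSO library. In the other compounds it was -0.04 in GSK343, 0.52 in BIX-01294, 0.58 in BRD4770, 0.79 in 2-PCPA and 1.40 in GSK-J4. Against the median of the 8 compounds it was -0.85 in VPA. VPA was among the 3 lowest of the 10 libraries in 31 of the 33 members, against 19.6% of all genes. It was the lowest of all in 6, against 3.19% of all genes. Both the ranks and the -0.85 also depend on the compounds in which these genes were higher than in DMSO.

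ATF4 acts with partners of the C/EBP family on a composite DNA element. The letters TGATGNAA, a short form of that element, were searched on both strands of RefSeq promoters (GRCh38.p14, 250 bases before to 50 after the start). They were present in 1270 of 35116 promoters (3.62%) and in 8 of the 26 list members that matched a promoter (30.8%). The 35116 promoters were taken whether or not their gene was expressed here, while each list member was a kept gene read at its first promoter. These shares are thus not from like sets. Of those 8 genes 7 were lower in VPA than in DMSO and 1 higher, and of the 18 matched genes without the letters 16 were lower and 2 higher. Of the 6 matched genes at least 2-fold lower, 3 held the letters. The windows of these 3 genes are shown as the 2-fold members that hold the letters; the capitals mark the element, in FGF21 and CHAC1 as its reverse complement. FGF21 is from chr19:48755440-48755507 on the plus strand, ASNS from chr7:97872439-97872506 on the minus strand and CHAC1 from chr15:40953232-40953299 on the plus strand, with the element beginning 54, 68 and 209 bases before the start.
FGF21: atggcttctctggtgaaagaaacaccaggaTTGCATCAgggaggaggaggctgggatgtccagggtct
ASNS: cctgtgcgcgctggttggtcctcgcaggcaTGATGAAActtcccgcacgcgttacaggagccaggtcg
CHAC1: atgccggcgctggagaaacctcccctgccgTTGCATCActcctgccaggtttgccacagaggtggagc

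ASNS, which makes asparagine, had 22.4 FPKM in VPA, 22.8 to 187 FPKM in the other 8 compounds (median 65.3) and 54.9 FPKM in DMSO, a difference of -1.26 from DMSO. FGF21, a secreted stress hormone, was listed at 0 in VPA, at 0 to 5.57 FPKM in the other compounds (median 1.49) and at 2.24 FPKM in DMSO. CHAC1, an enzyme that breaks down glutathione, had 3.18 FPKM in VPA, 2.19 to 41.4 FPKM in the other compounds (median 14.5) and 7.68 FPKM in DMSO. These 3 genes were chosen as lower than DMSO, and in each VPA was also below the median of the other compounds. PSAT1, of serine synthesis, had 11.9 FPKM in VPA, 10.9 to 109 FPKM in the other compounds (median 38.5) and 38.1 FPKM in DMSO. MTHFD2, of mitochondrial folate metabolism, had 79.9 FPKM in VPA, 57.6 to 296 FPKM in the other compounds (median 160) and 168 FPKM in DMSO. NUPR1, a small stress-induced nuclear protein, had 26.3 FPKM in VPA, 9.27 to 145 FPKM in the other compounds (median 77.5) and 64.0 FPKM in DMSO. DMSO lay in the middle of the 10 libraries for these genes, and VPA near the bottom.

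DDIT4, also called REDD1, restrains mTOR complex 1, and it showed the largest difference of the group, -1.80. It had 4.50 FPKM in VPA, 3.25 to 639 FPKM in the other 8 compounds (median 31.5) and 18.1 FPKM in DMSO. Only rapamycin, at 3.25 FPKM, was below VPA. ATF4 messenger RNA itself was at 211 FPKM in VPA, 209 FPKM in rapamycin, 222 FPKM in SAHA and 288 FPKM in DMSO, a difference of -0.45 between VPA and DMSO. The transporters SLC7A11 (3.98 FPKM in VPA and 8.54 FPKM in DMSO) and SLC1A5 (56.5 FPKM in VPA and 102 FPKM in DMSO) were lower by less than 2-fold, as were PHGDH, the first enzyme of serine synthesis (88.3 FPKM in VPA and 148 FPKM in DMSO), and GARS, which charges transfer RNA with glycine (53.2 FPKM in VPA and 96.7 FPKM in DMSO). The 3 members that were higher were ATF3 (13.3 FPKM in VPA and 8.76 FPKM in DMSO), CEBPB (25.9 FPKM in VPA and 21.5 FPKM in DMSO) and CTH (2.51 FPKM in VPA and 2.36 FPKM in DMSO). GDF15, a stress-induced cytokine, was lowest in VPA of all 10 libraries at 0.473 FPKM, with 1.5 to 28.3 FPKM in the other compounds and 1.40 FPKM in DMSO.

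**Figure D3:**
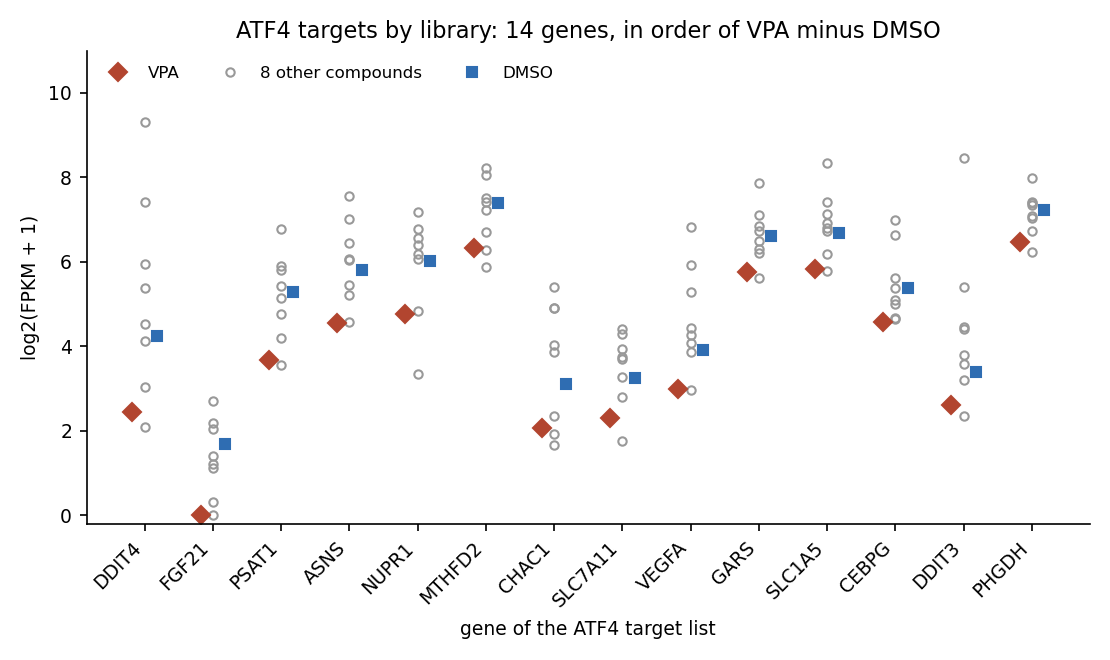
log2(FPKM + 1) of the 14 ATF4 targets with the lowest difference between VPA and DMSO, with VPA as red diamonds, each of the 8 other compounds as a grey circle and DMSO as blue squares. VPA lies among the 3 lowest libraries for all 14 genes shown.

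Genes of lipid synthesis were also lower in VPA. The cholesterol genes are driven by the SREBP transcription factors when sterols are low. Of 25 kept, 22 were lower in VPA than in DMSO and 3 higher, but none reached 2-fold lower and 1 was 2-fold higher. Their median difference relative to all genes was -0.54 in VPA, -0.85 in rapamycin and -0.12 in SAHA. It was also lower than in VPA in GSK-J4 (-1.17) and BRD4770 (-0.87), and above 0 in BIX-01294 (0.32), 2-PCPA (0.74), UNC1215 (1.12) and GSK343 (1.43). Against the median of the 8 compounds it was -0.51 in VPA. HMGCS1, an early enzyme of the pathway, had 18.3 FPKM in VPA, 11.5 FPKM in rapamycin, 34.2 FPKM in SAHA and 35.8 FPKM in DMSO. INSIG1, which holds SREBP in the endoplasmic reticulum, had 4.09 FPKM in VPA, 2.89 FPKM in rapamycin, 6.98 FPKM in SAHA and 8.48 FPKM in DMSO. For both genes VPA lay above rapamycin and below both SAHA and DMSO. The 1 gene that was 2-fold higher, the sterol reductase TM7SF2, was low in both libraries, at 2.81 FPKM in VPA and 0.437 FPKM in DMSO, and was level with the other compounds when these replaced DMSO.

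Of 16 fatty acid synthesis genes 15 were lower in VPA than in DMSO, with a median relative to all genes of -0.27, and of -0.25 against the 8 compounds. SCD, which desaturates fatty acids, was the 1 member at least 2-fold lower, with 23.1 FPKM in VPA, 13.5 to 220 FPKM in the other compounds (median 63.8) and 57.2 FPKM in DMSO. FASN, the fatty acid synthase, had 38.4 FPKM in VPA and 50.9 FPKM in DMSO, and ACSL1, which activates long-chain fatty acids, was lowest in VPA of the 10 libraries, at 8.36 FPKM against 14.3 FPKM in DMSO.

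The genes of ribosome production split. Of 32 ribosome biogenesis genes, which process ribosomal RNA and assemble the subunits, 30 were lower in VPA than in DMSO, none 2-fold, with a median relative to all genes of -0.52 in VPA, -0.43 in rapamycin and -0.30 in SAHA, and of -0.22 in VPA against the 8 compounds. NOP16 had 20.2 FPKM in VPA and 40.7 FPKM in DMSO, GNL3 (nucleostemin) 28.4 FPKM in VPA and 56.3 FPKM in DMSO, and the methyltransferase fibrillarin, FBL, 189 FPKM in VPA and 211 FPKM in DMSO. Of 77 genes for the ribosomal proteins themselves, 72 were higher in VPA than in DMSO, with a median of 0.27 in VPA, 0.37 in rapamycin and 0.33 in SAHA, and of 0.02 in VPA against the 8 compounds. RPL28 was the 1 at least 2-fold higher, against 2.81% of all genes. It had 588 FPKM in VPA, 201 to 657 FPKM in the other compounds and 239 FPKM in DMSO. Ribosomal protein genes have many processed copies in the genome, so their reads may be shared between copies.

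Genes that keep proteins folded or remove them were also mostly lower in VPA than in DMSO, by less when set against the 8 compounds. Of 20 heat shock genes 17 were lower in VPA, with a median relative to all genes of -0.45 in VPA, -0.50 in rapamycin and -0.03 in SAHA, and of -0.19 in VPA against the 8 compounds. The mitochondrial chaperonin HSPD1 had 185 FPKM in VPA and 317 FPKM in DMSO, and the cytosolic chaperone HSPA8 had 543 FPKM in VPA and 833 FPKM in DMSO, though HSPA8 was level with the median of the other compounds. Of 31 proteasome subunits 29 were lower in VPA, with a median of -0.30 (-0.16 against the 8 compounds), and of 23 genes of the unfolded protein response 18 were lower, with a median of -0.23 (-0.06 against the 8 compounds). Of 34 genes of glycolysis and hypoxia 23 were lower in VPA than in DMSO, 1 of them at least 2-fold, against 48.4% and 1.59% of all genes. Their median relative to all genes was -0.20 in VPA, -0.30 in rapamycin, 0.36 in SAHA, 1.87 in BRD4770 and 2.44 in GSK-J4. It was -0.42 in VPA against the 8 compounds. VPA was among the 3 lowest libraries in 22, against 19.6% of all genes, a rank that also depends on raised libraries such as GSK-J4. LDHA, which turns pyruvate into lactate, had 311 FPKM in VPA, 278 FPKM in rapamycin, 540 FPKM in SAHA and 527 FPKM in DMSO.

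**Figure D4:**
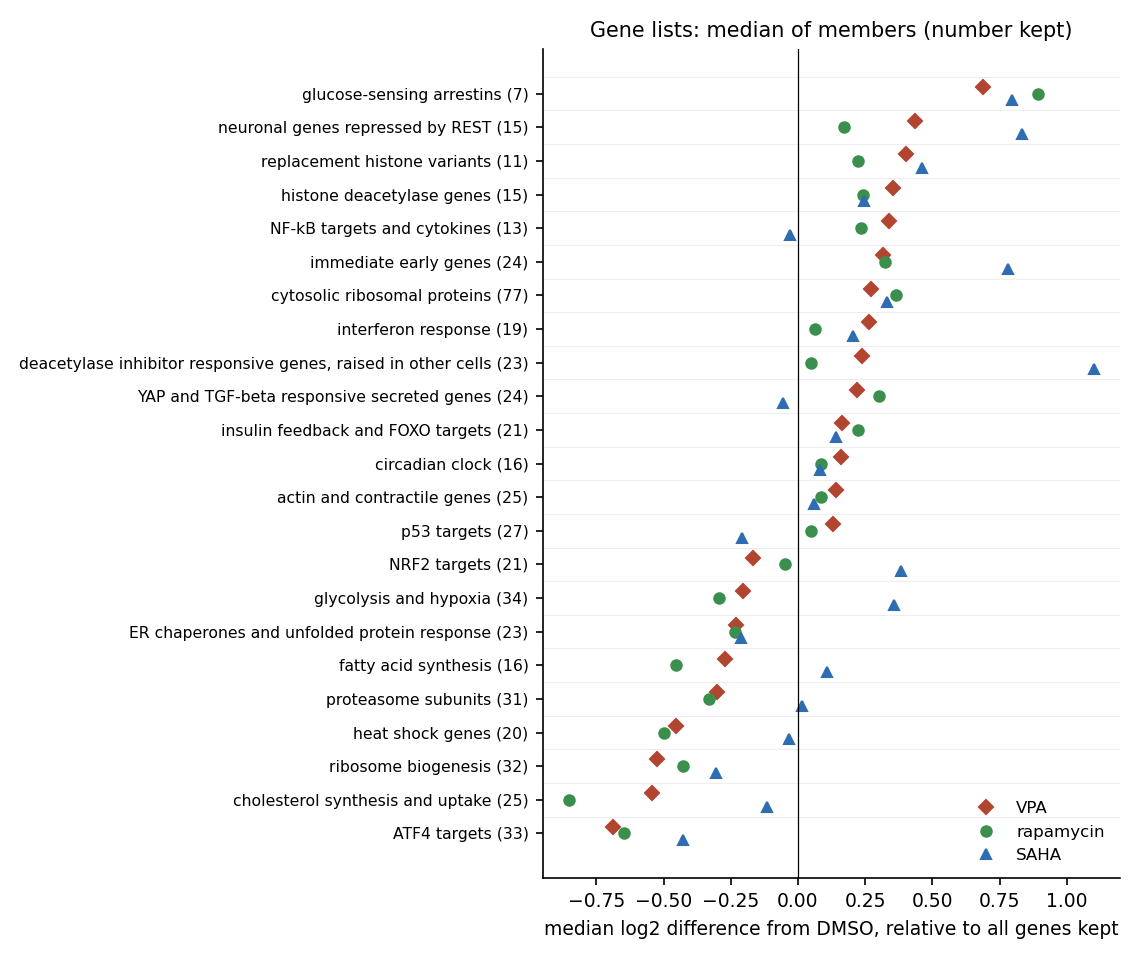
Median log2(FPKM + 1) difference from the DMSO library over the members of each gene list, relative to the median of all genes kept, for VPA (red diamonds), rapamycin (green circles) and SAHA (blue triangles), with the number of members kept in brackets; lists of at least 7 genes whose median in VPA was at least 0.13 from that of all genes. All 3 compounds share 1 DMSO library; ATF4 targets are lowest for VPA, and the deacetylase responsive list is at 0.24 for VPA and 1.10 for SAHA.

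Genes known to respond to deacetylase inhibitors in other cells were compared between VPA and SAHA, both against DMSO, at doses that differ (VPA at 20 μM, SAHA at 1 μM), so the values stand side by side. Of 23 genes raised by such inhibitors in other cells, 16 were higher in VPA than in DMSO and 1 at least 2-fold, while 21 were higher in SAHA than in DMSO and 14 at least 2-fold. Over all genes kept, 50.7% were higher in VPA than in DMSO and 2.81% at least 2-fold. In SAHA these shares were 53.9% and 7.79%. Their median difference relative to all genes was 0.24 in VPA and 1.10 in SAHA, and 0.07 in VPA against the 8 compounds. In 21 of the 23 the VPA value lay below the SAHA value, and in 9 by at least 2-fold, against 53.6% and 6.57% of all genes. Of 17 genes lowered by such inhibitors in other cells, 6 were lower and 11 higher in VPA than in DMSO, with a median of 0.03, beside -0.44 in SAHA. Against the 8 compounds their median in VPA was 0.21. All 17 were higher in VPA than in SAHA, against 45.6% of all genes.

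H1F0, the linker histone that deacetylase inhibitors commonly raise, had 474 FPKM in VPA, 843 FPKM in SAHA and 357 FPKM in DMSO. CLU, the secreted chaperone clusterin, had 927 FPKM in VPA, 2244 FPKM in SAHA and 662 FPKM in DMSO. GSN, the actin-severing protein gelsolin, had 25.9 FPKM in VPA, 119 FPKM in SAHA and 27.2 FPKM in DMSO. VPA thus lay above DMSO for H1F0 and CLU and slightly below it for GSN, and SAHA was highest in each. HIST2H2BE, a core histone gene, had 21.4 FPKM in VPA, 65.6 FPKM in SAHA and 16.1 FPKM in DMSO. The metallothionein MT1X had 64.2 FPKM in VPA, 542 FPKM in SAHA and 78.9 FPKM in DMSO. TYMS, the thymidylate synthase that these inhibitors lower elsewhere, had 187 FPKM in VPA, 64.5 FPKM in SAHA and 177 FPKM in DMSO. TXNIP, an inhibitor of thioredoxin, was the 1 gene of the first list at least 2-fold higher in VPA, at 3.89 FPKM, with 4.63 FPKM in SAHA, 6.32 FPKM in rapamycin and 0.788 FPKM in DMSO, and VPA was level with the median of the 8 other compounds (3.77 FPKM).

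**Figure D5:**
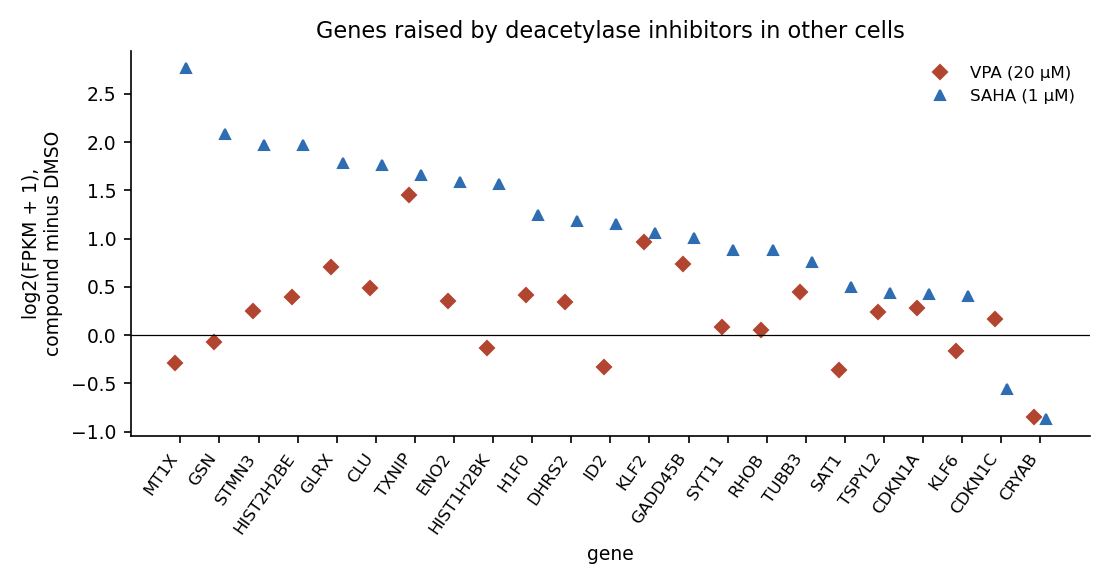
log2(FPKM + 1) difference from the DMSO library (vertical axis) for 23 genes raised by deacetylase inhibitors in other cells, VPA at 20 μM as red diamonds and SAHA at 1 μM as blue triangles, in order of the SAHA difference. SAHA lies above VPA for 21 of the genes, and both share 1 DMSO library.

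Of 24 replication-dependent histone genes, 11 were higher and 12 lower in VPA than in DMSO. Their median relative to all genes was -0.07 in VPA and 1.13 in SAHA, and 0.22 in VPA against the 8 compounds. Poly(A) selected libraries hold few of these transcripts, most of which have no poly(A) tail. Replacement variants, which do carry one, were 8 higher and 3 lower in VPA, with a median of 0.40 in VPA and 0.46 in SAHA, and of 0.35 in VPA against the 8 compounds. H1FX, a linker histone variant, was highest in VPA of the 10 libraries, with 363 FPKM in VPA, 116 to 343 FPKM in the other compounds (median 191) and 153 FPKM in DMSO. A list of neuronal genes held down by the repressor REST, which recruits deacetylases, also held REST and its corepressor RCOR1, both higher in VPA. Its 15 members were 12 higher and 3 lower in VPA, with a median of 0.44 in VPA and 0.83 in SAHA; against the median of the 8 other compounds the VPA median was -0.12. SYP (synaptophysin) had 1.53 FPKM in VPA, 26.7 FPKM in SAHA and 0.513 FPKM in DMSO.

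Of 15 genes for the deacetylases themselves, 9 were higher and 6 lower in VPA than in DMSO, with a median relative to all genes of 0.35, which was 0.00 against the 8 compounds. The RNA levels of the class I enzymes, which VPA is known to inhibit, were lower by less than 2-fold. Whether VPA at 20 μM inhibited these enzymes in these cells was not measured. HDAC1 had 74.3 FPKM in VPA and 80.1 FPKM in DMSO, HDAC2 had 19.3 FPKM in VPA and 26.1 FPKM in DMSO, HDAC3 had 25.2 FPKM in VPA and 29.5 FPKM in DMSO, and HDAC8 had 16.8 FPKM in VPA and 20.3 FPKM in DMSO. HDAC5, a class II enzyme, was the 1 member past 2-fold, against 2.81% of all genes, and VPA was its highest library. It had 22.1 FPKM in VPA, 4.0 to 20.7 FPKM in the other compounds (median 13.2) and 8.04 FPKM in DMSO. HDAC6, which deacetylates tubulin, was also highest in VPA, at 22.1 FPKM against 17.5 FPKM in DMSO.

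Autophagy genes showed no common direction. Of 35 core genes, 22 were higher and 13 lower in VPA than in DMSO, with a median relative to all genes of 0.02 in VPA, 0.14 in rapamycin and 0.30 in SAHA, and of -0.12 in VPA against the 8 compounds. The 3 at least 2-fold higher were ULK1, WIPI1 and WDR45, against 2.81% of all genes. Across the other 8 compounds the same count ran from 1 in 2-PCPA to 9 in GSK-J4, and it was 3 in rapamycin, GSK343 and SAHA. ULK1, the kinase that starts autophagy and that mTOR complex 1 inhibits, had 12.7 FPKM in VPA, 5.48 to 14.1 FPKM in the other compounds (median 9.93) and 4.82 FPKM in DMSO. WIPI1, which reads the lipid of the forming membrane, had 10.4 FPKM in VPA, 3.55 to 13.0 FPKM in the other compounds (median 8.40) and 4.10 FPKM in DMSO. WDR45, of the same protein family, had 37.8 FPKM in VPA, 14.9 to 49.9 FPKM in the other compounds (median 27.5) and 15.3 FPKM in DMSO. DMSO was the lowest or next to lowest of the 10 libraries for all 3, and against the median of the 8 compounds their differences in VPA were 0.34, 0.28 and 0.49.

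GABARAPL1, which coats autophagosomes, had 46.6 FPKM in VPA, 25.1 to 175 FPKM in the other compounds (median 48.7) and 25.7 FPKM in DMSO. ATG5, needed to attach such proteins to the membrane, had 10.0 FPKM in VPA, 9.64 to 19.9 FPKM in the other compounds (median 11.6) and 15.0 FPKM in DMSO. Of 15 cargo receptors 8 were higher and 7 lower in VPA than in DMSO, none 2-fold. SQSTM1 (p62), the receptor for ubiquitinated cargo, had 79.3 FPKM in VPA, 92.2 FPKM in rapamycin, 47.1 FPKM in SAHA and 50.2 FPKM in DMSO, and NBR1, a related receptor, had 32.4 FPKM in VPA, 37.1 FPKM in rapamycin, 15.3 FPKM in SAHA and 17.5 FPKM in DMSO. FUNDC1, a receptor on mitochondria, was lowest in VPA of the 10 libraries, at 4.63 FPKM, with 11.7 FPKM in rapamycin, 12.1 FPKM in SAHA and 7.5 FPKM in DMSO. Both VPA and rapamycin lay above SAHA and DMSO for SQSTM1 and NBR1, while for FUNDC1 VPA lay below rapamycin, SAHA and DMSO. For SQSTM1, 2-PCPA (78.2 FPKM) and UNC1215 (76.9 FPKM) were nearer to VPA than rapamycin was. Every compound but SAHA lay above DMSO for SQSTM1. For NBR1, GSK-J4 (28.6 FPKM), BRD4770 (27.9 FPKM), GSK343 (25.8 FPKM), BIX-01294 (24.2 FPKM) and UNC1215 (18.1 FPKM) also lay above DMSO. Only SAHA and 2-PCPA (15.4 FPKM) lay below it.

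Of 33 listed lysosome genes and regulators (TFEB, TFE3 and MITF), 22 were higher and 11 lower in VPA than in DMSO. At least 2-fold higher were 2, against 2.81% of all genes. The list median relative to all genes was 0.13 in VPA, 0.31 in rapamycin and 0.33 in SAHA, and 0.10 in VPA against the 8 compounds. TFEB itself was at 2.29 FPKM in VPA and 2.92 FPKM in DMSO. TFEB binds elements around CACGTG, whose letters read the same on both strands. They were present in 2548 of 35116 RefSeq promoters (7.26%), in 9 of the 24 list members matched to one (37.5%) and in both 2-fold members. As for ATF4, the 35116 promoters include genes not kept here, so these shares are not from like sets. All 9 list members with the letters were higher in VPA than in DMSO. Of the 15 matched members without the letters, 8 were higher and 7 lower. The windows of the 2-fold members are shown, with CACGTG in capitals, for CTSF from chr11:66568622-66568759 and for CLCN7 from chr16:1475020-1475105, both on the minus strand of GRCh38.p14. Each window holds the letters at 2 places, the first of them 123 bases before the start in CTSF and 47 bases before it in CLCN7.
CTSF: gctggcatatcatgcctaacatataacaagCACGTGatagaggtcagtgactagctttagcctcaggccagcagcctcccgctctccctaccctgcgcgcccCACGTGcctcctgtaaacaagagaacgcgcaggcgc
CLCN7: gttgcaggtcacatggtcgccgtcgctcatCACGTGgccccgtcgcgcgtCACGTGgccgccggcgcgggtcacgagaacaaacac

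CTSF, the protease cathepsin F, had 4.94 FPKM in VPA, 0.545 to 5.01 FPKM in the other compounds (median 3.10) and 1.35 FPKM in DMSO. CLCN7, the lysosomal chloride transporter, had 21.1 FPKM in VPA, 9.24 to 29.0 FPKM in the other compounds (median 14.4) and 10.1 FPKM in DMSO. Both lay near the top of the range in VPA and near its bottom in DMSO. GAA, the glucosidase that digests glycogen, had 19.9 FPKM in VPA, 20.7 FPKM in rapamycin and 10.7 FPKM in DMSO, and the protease cathepsin D, CTSD, had 103 FPKM in VPA, 108 FPKM in rapamycin and 58.5 FPKM in DMSO. MITF, a relative of TFEB, was lower, at 4.16 FPKM in VPA and 5.68 FPKM in DMSO.

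Genes of inositol and fatty acid metabolism, through which VPA is known to act outside chromatin, were measured next. Of 14 inositol genes, 8 were higher and 6 lower in VPA than in DMSO, with 1 at least 2-fold higher and 1 at least 2-fold lower, against 2.81% and 1.59% of all genes. ISYNA1, which makes inositol phosphate from glucose phosphate, had 3.08 FPKM in VPA, 0.413 to 3.55 FPKM in the other compounds (median 2.50) and 0.430 FPKM in DMSO, so VPA was high and DMSO low within the same range. INPP4B, a lipid phosphatase, had 7.54 FPKM in VPA, 7.01 to 18.1 FPKM in the other compounds and 17.2 FPKM in DMSO. The inositol monophosphatase IMPA1 (8.41 FPKM in VPA and 10.4 FPKM in DMSO) and the inositol carrier SLC5A3 (3.28 FPKM in VPA and 4.38 FPKM in DMSO) were lower by less than 2-fold. Of 32 genes of mitochondrial fatty acid oxidation, 14 were higher and 18 lower, with a median of -0.04, and of 0.05 against the 8 compounds. At least 2-fold higher was 1, near the 2.81% of all genes. CPT1B, a carnitine transferase that brings fatty acids into mitochondria, was highest in VPA of the 10 libraries, with 5.92 FPKM in VPA, 1.26 to 5.58 FPKM in the other compounds (median 2.30) and 1.74 FPKM in DMSO. ABAT, the GABA transaminase, had 2.88 FPKM in VPA, 11.5 FPKM in SAHA and 2.71 FPKM in DMSO.

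Growth factor response genes were mostly higher in VPA than in DMSO. Of 24 immediate early genes 20 were higher in VPA and 2 at least 2-fold, against 50.7% and 2.81% of all genes. Their median relative to all genes was 0.32 in VPA, 0.32 in rapamycin and 0.78 in SAHA. EGR1, an early growth response factor, had 17.0 FPKM in VPA, 9.22 to 263 FPKM in the other compounds (median 19.6) and 6.49 FPKM in DMSO. JUNB, an AP-1 subunit, had 27.2 FPKM in VPA, 6.52 to 117 FPKM in the other compounds (median 21.3) and 8.78 FPKM in DMSO. DMSO was the lowest of the 10 libraries in 3 of the 24, against 3.51% of all genes. Against the median of the 8 other compounds the list was at -0.08 and EGR1 at -0.17. Of 13 NF-kB targets 11 were higher in VPA than in DMSO, with a median of 0.34, which was 0.06 against the 8 compounds. RELB, an NF-kB subunit, had 11.3 FPKM in VPA, 2.23 to 15.4 FPKM in the other compounds (median 6.23) and 1.96 FPKM in DMSO, the lowest of the 10.

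Actin genes were among those in which VPA ranked high. VPA was among the 3 highest libraries in 18 of 25, against 29.7% of all genes, and the highest in 7, against 5.98%. These ranks also depend on lowered libraries such as 2-PCPA, whose list median relative to all genes was -0.58. Of the 25 genes 19 were higher in VPA than in DMSO and 6 lower. The list median relative to all genes was 0.14 in VPA against DMSO, and 0.20 against the 8 compounds. TAGLN (transgelin) had 150 FPKM in VPA, 44.3 to 148 FPKM in the other compounds (median 68.3) and 93.5 FPKM in DMSO, and the cross-linker FLNA had 586 FPKM in VPA and 405 FPKM in DMSO. ACTA2, smooth muscle actin, was the 1 member past 2-fold, against 2.81% of all genes. It had 3.25 FPKM in VPA, 0.519 to 3.72 FPKM in the other compounds (median 1.499) and 0.351 FPKM in DMSO. Set against DMSO, the medians of cell cycle genes were near that of all genes, at -0.08 for 38 S phase genes and -0.04 for 41 genes of G2 and mitosis. Against the 8 compounds these medians were 0.12 and 0.23. Of the 41 genes 12 were higher and 29 lower in VPA than in DMSO, against 50.7% and 48.4% of all genes. VPA was among the 3 highest libraries in 19 of the 41, against 29.7% of all genes. CENPE, a kinetochore motor, was the 1 mitosis gene past 2-fold, against 2.81% of all genes, and was highest in VPA. It had 33.1 FPKM in VPA, 5.04 to 24.4 FPKM in the other compounds (median 12.5) and 15.9 FPKM in DMSO. CCNG2, a cyclin raised by FOXO factors, was also highest in VPA, with 24.7 FPKM in VPA, 8.58 to 24.3 FPKM in the other compounds (median 11.7) and 9.31 FPKM in DMSO.

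The 15 genes with the largest higher values in VPA were chosen by the difference from DMSO, which by itself raises the counts that follow. Of these genes, 7 had DMSO as the lowest of the 10 libraries, 6 were listed at 0 in DMSO and 2 had VPA as the highest. The largest was a small RNA row, tRNA Pro, with 266 FPKM in VPA and 0 in DMSO, and the counts include it. SNURF (40.2 FPKM in VPA and 0.0046 FPKM in DMSO) and PIGY (12.3 FPKM in VPA and 0 in DMSO) share their transcripts with SNRPN and PYURF, so their values are uncertain: SNRPN was at 58.9 FPKM in VPA and 49.0 FPKM in DMSO, and PYURF at 56.2 FPKM in VPA and 69.7 FPKM in DMSO. UBALD2 was well above the low range, with 113 FPKM in VPA, 28.6 to 121 FPKM in the other compounds (median 60.3) and 26.7 FPKM in DMSO. TNFRSF13C, the receptor for the B-cell factor BAFF, had 6.02 FPKM in VPA, 0 to 3.61 FPKM in the other compounds and 0.389 FPKM in DMSO. SLC24A5, a cation exchanger of pigment organelles, had 22.2 FPKM in VPA, 2.66 to 12.2 FPKM in the other compounds (median 9.48) and 4.86 FPKM in DMSO. VPA was the highest of the 10 for the last 2 genes, and for UBALD2 DMSO was the lowest.

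The 15 genes with the largest lower values were chosen in the same way. Of these, 7 had DMSO as the highest of the 10, 5 were listed at 0 in VPA and 5 had VPA as the lowest. These counts include the small RNA rows U6 (0 in VPA and 30.8 FPKM in DMSO) and U2 (0 in VPA and 14.4 FPKM in DMSO). SREK1IP1, which is linked to splicing, had 2.68 FPKM in VPA, 3.85 to 13.7 FPKM in the other compounds (median 9.31) and 18.7 FPKM in DMSO, so VPA and DMSO were at opposite ends. RPF2, of ribosome assembly, had 9.64 FPKM in VPA, 12.8 to 67.7 FPKM in the other compounds (median 23.9) and 35.8 FPKM in DMSO. BCYRN1, a non-coding RNA derived from an Alu repeat whose reads may come from other copies, had 70.7 FPKM in VPA, 71.4 to 310 FPKM in the other compounds and 432 FPKM in DMSO. CITED1, a transcriptional co-activator, had 0.227 FPKM in VPA, 0.792 to 2.94 FPKM in the other compounds and 3.17 FPKM in DMSO.

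Ranked by how far VPA stood above the next of the 10 libraries, the leading genes were mostly of low level. ZNF747, a zinc finger gene, had 4.71 FPKM in VPA, 0 to 1.90 FPKM in the other compounds and 1.54 FPKM in DMSO, a gap of 0.98 on the log2 scale. COQ4, needed for coenzyme Q synthesis, had 21.3 FPKM in VPA, 5.65 to 11.8 FPKM in the other compounds (median 9.17) and 8.60 FPKM in DMSO. NOX4, an oxidase that makes hydrogen peroxide, had 4.01 FPKM in VPA, 0.391 to 2.07 FPKM in the other compounds and 1.39 FPKM in DMSO. ATP6V1E2, a subunit of the proton pump that acidifies vesicles, had 11.3 FPKM in VPA, 1.99 to 6.51 FPKM in the other compounds and 3.47 FPKM in DMSO. EPHX2, an epoxide hydrolase of lipid mediators, had 4.35 FPKM in VPA, 0.744 to 2.53 FPKM in the other compounds and 0.680 FPKM in DMSO. In these 5 genes VPA stood alone at the top, and only for EPHX2 was DMSO the lowest.

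At the other end, ZDHHC14, a palmitoyl transferase, had 1.83 FPKM in VPA, 4.14 to 8.87 FPKM in the other compounds and 4.36 FPKM in DMSO, a gap of -0.86 to the next library. TIPARP, an ADP-ribosyltransferase induced by the aryl hydrocarbon receptor, had 0.847 FPKM in VPA, 1.80 to 15.0 FPKM in the other compounds and 3.38 FPKM in DMSO. SNHG4, a host gene of small nucleolar RNA, had 0.795 FPKM in VPA, 2.04 to 4.57 FPKM in the other compounds and 4.33 FPKM in DMSO. KLF12, a repressor of the Krüppel-like family, had 1.70 FPKM in VPA, 2.96 to 6.37 FPKM in the other compounds and 3.82 FPKM in DMSO. The DMSO values of these 4 genes lay within the range of the other compounds, and VPA lay below it.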

How the data were processed

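Poly(A) messenger RNA of U2OS cells was sequenced from libraries made with a Rubicon ThruPLEX kit, per the labels' protocols. The authors deposited FPKM values per gene, per the file headers, in 2 tables normalized separately. The table with VPA, of 10 libraries, was used, and the other, of 4, gave the repeat counts for rapamycin, GSK343 and 2-PCPA. FastQC, cutadapt, TopHat2 and genome build hg19 are named in the submitters' processing notes. The program that made the FPKM values, its annotation and the use of strand were not named in the sources used here, so genes sharing reads or overlapping on opposite strands cannot be separated. Read depth is unknown, and only depth relative to VPA was read from the steps between low values (up to 0.3 FPKM).

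Values were taken as log2(FPKM + 1), for genes averaging 1 FPKM or more, after 1 row named unknown was left out. No test was made. Named genes were the 15 per direction with the largest difference between VPA and DMSO and the 12 per direction in which VPA was furthest outside the other 9 libraries, leaving out small RNA and clone rows that a pattern of symbols recognised (it missed tRNA Pro, U2 and U6). Up to 4 members of each of 40 gene lists by size of difference, and a further 32 genes of VPA, autophagy and chromatin biology, were added to the rule. Genes outside that rule were named as list examples after their values were seen. Members and lists were chosen with earlier results of these data known. Promoter windows came from RefSeq (GRCh38.p14), matched by symbol, and carry no coordinates of the authors' build. Python 3.11.15, pandas 2.3.3 and numpy 2.4.6 were used, and the counting was checked on simulated data. Alternatives were other pseudocounts, filters, scalings and references.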

Additional observations from a re-analysis of the deposited data

How the results depend on the processing

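The number of genes at least 2-fold higher in VPA, 360, became 683 with a pseudocount of 0.1, 80 with one of 5 and 155 with a mean of at least 5 FPKM. It was 174 with the median of the 8 other compounds in place of DMSO and 165 with the median of DMSO and those 8, a reference chosen after seeing the data. The number at least 2-fold lower, 203, became 405, 53, 83, 122 and 112 under the same settings, and 352 with each library scaled to an equal sum. The higher share of the 2-fold genes was 63.9% (95% exact binomial interval 59.8% to 67.9%, counting error only, as if genes were independent). It was 57.3% after quantile normalization, 56.1% with equal sums and 58.8% with the median of the 8 compounds. Genes with VPA the highest, 766, numbered 1293 with no filter and 498 with a mean of at least 5 FPKM. Genes with VPA the lowest, 409, numbered 247 with that mean, 641 with median centring, 693 with quantile normalization and, in an alternative added after seeing the data, 705 without 2-PCPA, which is lowest in 36.9% of genes. The causes of the other shifts were not tested.

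Of 69 named genes past 2-fold, all kept their direction under the pseudocount, filter and scaling alternatives in which they were kept (36 of 36 with a mean of at least 5 FPKM), and 63 did with the median of the 8 compounds, where 30 stayed past 2-fold. With a pseudocount of 5, 29 did. Against that median EGR1 was at -0.17, PLK2 at 0.22 and TM7SF2 at -0.00241, and the list medians at -0.12 for neuronal genes and -0.0757 for immediate early genes, each opposite to the difference from DMSO. No scaling moved the median of all genes by 0.1. No paired analysis was possible because VPA has 1 library and shares only 1 replicate number with DMSO. With 1 VPA and 1 DMSO library there is no replicate error, and the libraries' absolute depth is unknown.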
